A study of Mus musculus with 6 samples.

Results

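The 10 genes described here belong to the machinery by which endothelium senses blood flow and sets vessel tone: the Krüppel-like factor genes Klf2, Klf4, Klf6 and Klf10, the nitric oxide genes Nos3 and Nostrin, the endothelin genes Edn1, Ednrb and Ece1, and Txnip. They were taken by gene symbol, and all 10 were found among the 18956 genes with values. RNA sequencing had been done on lung endothelial cells of mice in 2 groups of 3 libraries, labelled WT, Cre-negative and CSE-KO, Cre-positive. CSE is cystathionine gamma-lyase, an enzyme that makes cysteine and hydrogen sulfide and is encoded by Cth. Not given in the sources used here are the Cre driver, the deleted exons, the age and strain of the mice, any culture of the cells and whether replicates came from separate animals. The p-values below therefore describe the variation among 3 libraries a group, some or all of which may be technical.

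As background, laminar flow acts on endothelial cells through a kinase cascade that ends in ERK5 and MEF2 factors and switches on Klf2 and Klf4. These transcription factors favour nitric oxide synthase and thrombomodulin and restrain endothelin and adhesion molecules, so that a flow-conditioned vessel dilates and resists clotting. Endothelin is cut from a large precursor by its converting enzyme and constricts vessels through its receptor on smooth muscle, while the type B receptor on endothelial cells triggers nitric oxide release and clears the peptide. TXNIP binds thioredoxin, limits glucose uptake and is among the genes lowered by steady flow.

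Values are the scores of the deposited table, read as normalized counts (reads per gene divided by a factor for the library and rounded). Totals lay between 5698922 and 6052275 per library. Cth was at 29, 27 and 26 in WT 1 to 3 against 49, 43 and 63 in CSE-KO 1 to 3, so the libraries labelled CSE-KO held more of it (log2 fold change 0.89, SE 0.18, limma adjusted p = 0.00079). This goes against the label, and since a whole-gene value includes exons outside any deletion, it does not check the deletion. Groups are named by their labels, and every direction below is that of the libraries labelled CSE-KO against those labelled WT. An index of the spread between libraries, 1 for counting noise alone, was 0.698 to 0.751 for WT pairs over all genes and 0.909 to 1.03 in genes under 0.01 reads per exonic base. In genes with at least 0.2, among them Klf2, Klf4, Klf6, Edn1, Ece1 and Txnip, it was 0.496 to 0.631 for WT pairs. For CSE-KO 2 and 3 the index was 0.862 over all genes, 1.11 in the sparsely read and 0.546 in the densely read ones. CSE-KO 1 stood apart from them with 1.64 and 1.93 over all genes. An index under 1 means a spread smaller than counting noise, and its cause was not tested. The p-values of densely read genes rest on that small spread. All 6 libraries entered the tests as separate samples. Calls were also tried with WT counted as 1 sample, and with CSE-KO 2 and 3 also as 1, which leaves too few samples for a lost call to say much.

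Markers of several cell types differed between the groups. Of 11 endothelial markers 10 fell and 0 rose, and their summed values went from 19578 to 19943 in WT to 12195 to 13134 in CSE-KO. Cdh5, the endothelial cadherin, fell by only 0.08 on the log2 scale (2849, 2815 and 2823 against 2678, 2676 and 2666). Of 12 macrophage markers 11 rose and 1 fell, from a sum of 956 to 984 to one of 1436 to 1629, and Adgre1, Ptprc and Itgam were at 0 in every WT library. Without Cd14, the member that fell, the sum was 168 to 209 in WT and 1121 to 1413 in CSE-KO. Of 5 mesothelial markers 4 were tested and all 4 rose, with a sum of 191 or 192 against 628 to 719. Of 8 mural markers with values 5 rose and 2 fell, with a sum of 941 to 996 against 1712 to 1854, and of 5 fibroblast markers with values 1 rose and 1 fell (1168 to 1267 against 1128 to 1463). Of the lymphatic endothelial markers 4 of 5 fell and 1 rose, with a sum of 12284 to 12483 against 4789 to 6285, while none of the epithelial markers tested was called and Epcam stayed at 3 or less in every library. The tests took genes with at least 10 in at least 3 libraries. Mpeg1, Adgre1, Csf1r, C1qa, C1qb, Tyrobp, Ptprc, Itgam, Wt1, Msln and Upk3b were under 10 in every WT library. The mural marker Cspg4 was under 10 in every CSE-KO library. Each of these was tested only through the other group, which fixed the direction of its call. The part of the marker shifts in the results below was not tested. In bulk RNA, fewer cells of a type and less RNA per cell cannot be told apart.

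The stretches of DNA just upstream of a RefSeq transcription start are shown for Klf2 and Klf4 and for Edn1 and Ednrb. Klf2 and Klf4 are a closely related pair whose values moved slightly and in opposite directions, though the call of Klf2 depended on scaling. Relative to the summed endothelial markers both were higher in CSE-KO. Edn1 and Ednrb are the ligand and receptor that moved apart. Each stretch is the 250 bases before the RefSeq start (GRCm38.p6), 5′ to 3′ on the strand of the gene. RefSeq starts can differ from the gene spans of the deposited table. The Ednrb stretch lies wholly within its span there (103814625 to 103844402). That of Klf2 runs into its own span, which begins at 72319033, and its CACCC match lies in that part. Capitals mark matches, on either strand, to CACCC, the core of the sites that Krüppel-like factors bind, to CACGTG, known as an E-box, and to the MEF2 motif by its name. The search also covered AGATAA for the GATA-binding family, the AP-1 motif TGANTCA, and TGATGNAA from the amino acid response element, and found no match to these in the 11 promoters of the genes. Matches to different motifs did not overlap. Klf2 lies at chr8:72318812-72319061 on the plus strand, Klf4 at chr4:55532476-55532725 on the minus strand, Edn1 at chr13:42301226-42301475 on the plus strand and Ednrb at chr14:103843702-103843951 on the minus strand.
Klf2: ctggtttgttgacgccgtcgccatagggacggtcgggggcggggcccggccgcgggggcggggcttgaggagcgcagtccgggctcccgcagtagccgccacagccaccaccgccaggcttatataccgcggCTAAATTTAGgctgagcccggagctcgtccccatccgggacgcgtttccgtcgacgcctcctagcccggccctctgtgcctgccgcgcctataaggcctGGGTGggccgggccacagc
Klf4: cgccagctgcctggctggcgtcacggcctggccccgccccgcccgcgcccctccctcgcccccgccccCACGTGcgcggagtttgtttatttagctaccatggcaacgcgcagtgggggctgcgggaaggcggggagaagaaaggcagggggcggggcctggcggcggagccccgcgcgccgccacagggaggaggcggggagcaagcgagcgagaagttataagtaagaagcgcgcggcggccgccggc
Edn1: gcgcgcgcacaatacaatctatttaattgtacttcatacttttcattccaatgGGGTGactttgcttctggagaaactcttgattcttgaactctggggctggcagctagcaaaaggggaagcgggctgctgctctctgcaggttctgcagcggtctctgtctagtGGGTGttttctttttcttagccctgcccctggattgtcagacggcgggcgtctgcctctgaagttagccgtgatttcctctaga
Ednrb: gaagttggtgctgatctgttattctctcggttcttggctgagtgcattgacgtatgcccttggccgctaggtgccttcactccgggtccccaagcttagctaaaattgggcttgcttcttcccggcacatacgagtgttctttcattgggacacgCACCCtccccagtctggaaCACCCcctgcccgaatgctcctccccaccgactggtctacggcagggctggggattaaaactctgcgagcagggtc
Klf2 held a MEF2 match from base -118 to -109 before the start, a motif found in 2.92% of 32841 mouse promoters of the same length. It also held 1 CACCC match, and Edn1 and Ednrb held 2 each, against 52% of promoters with at least 1. Klf4 had 1 CACGTG match (6.02% of promoters) and no CACCC, MEF2 or other match. The G and C content was 71.2% for Klf2, 74% for Klf4, 50.4% for Edn1 and 56.8% for Ednrb. Of the 10 genes, 8 had RefSeq promoter entries, and a match of letters is a description, not a bound site.

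All 10 genes passed the filter on low values, 3 rose (Klf4, Klf6 and Edn1), 5 fell (Klf2, Nos3, Nostrin, Ednrb and Ece1), and Klf10 and Txnip were not called (limma, adjusted p under 0.05). With library totals made equal, 5 rose and 4 fell, and of the 13663 genes tested in that setting 6006 rose and 4735 fell. Over the 13750 genes tested, 77.4% were called, 38.3% upward and 39% downward, so 8 of 10 is close to the share of all genes. The groups did not overlap in 9 of the 10, against 80.4% of all tested genes. Nos3 and Ednrb changed at least 2-fold, as 22.2% of tested genes did. The median log2 fold change was -0.05 in the 10 genes and 0.00 over all genes.

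**Figure D1:**
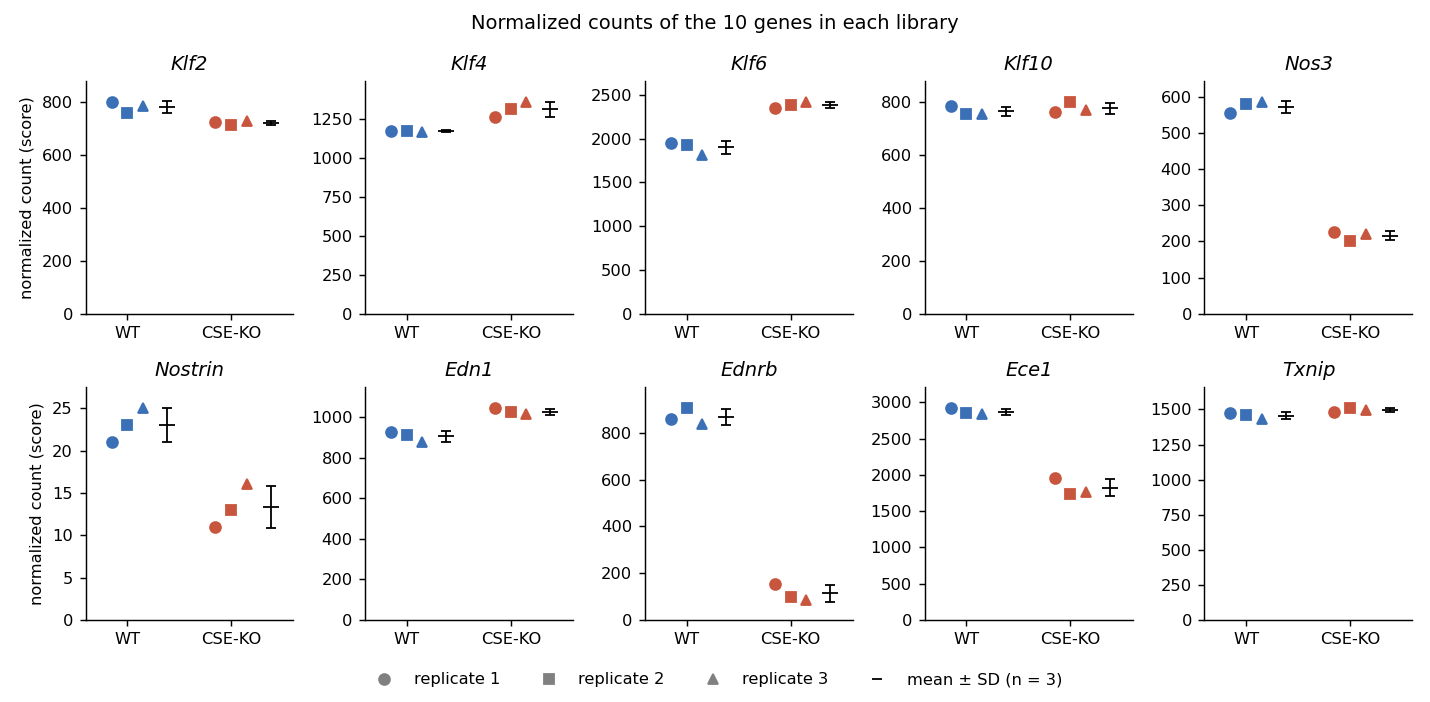
Normalized counts of the 10 genes by group. Points are the 6 libraries, with the shape giving the replicate number, and the bar beside them is the mean ± SD (n = 3). Ednrb fell from 868 to 113 and Nos3 from 574 to 216, while Klf10 and Txnip were at nearly the same level in both groups.

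In the values as deposited, the Krüppel-like factors were expressed at high level in both groups and moved little and not alike. Klf2, the main flow-induced factor (ENSMUSG00000055148, mm10 chromosome 8, 72319033 to 72321656), was at 801, 759 and 787 in WT 1 to 3 against 725, 713 and 729 in CSE-KO 1 to 3. The CSE-KO values all lay below the WT values, by a log2 fold change of -0.11 (SE 0.031, adjusted p = 0.0055). The call depended on scaling, with -0.07 (adjusted p = 0.0746) after upper-quartile scaling and -0.04 (adjusted p = 0.232) with equal totals. Counting WT as 1 sample left the log2 fold change at -0.11 (adjusted p = 0.0544). Relative to the summed endothelial markers Klf2 was higher in CSE-KO, with a quotient of 1.45. The same quotient was 1.76 for Klf4, 1.98 for Klf6 and 1.6 for Klf10, so on this measure all of them were higher. Over single markers the lowest quotient, with Emcn, was 0.911 for Klf2, 1.1 for Klf4, 1.24 for Klf6 and 1.0 for Klf10.

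Klf4, which shares many endothelial targets with Klf2 (ENSMUSG00000003032, chromosome 4, 55527143 to 55532466), was at 1175, 1176 and 1168 in WT against 1260, 1317 and 1358 in CSE-KO. All CSE-KO libraries were higher, CSE-KO 1 the least so, and a log2 fold change of 0.16 was found (SE 0.029, adjusted p = 0.00041). The ratio of Klf4 to Klf2 within a library, into which no scaling enters, was 1.5 ± 0.04 in WT and 1.82 ± 0.07 in CSE-KO (SD, n = 3). The groups did not overlap in this ratio (1.47 to 1.55 against 1.74 to 1.86). An exact two-sided permutation test over 3 against 3 libraries cannot go below p = 0.1, and the ratio gave that smallest value.

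Klf6, an injury-responsive factor (ENSMUSG00000000078, chromosome 13, 5861482 to 5870394), was at 1953, 1928 and 1819 in WT against 2353, 2388 and 2418 in CSE-KO. The mean rose by 25.6% with no overlap (log2 fold change 0.33, SE 0.028, adjusted p = 7.9e-07). Klf10, which transforming growth factor beta induces (ENSMUSG00000037465, chromosome 15, 38291463 to 38300706), was at 787, 758 and 755 against 762, 801 and 771. The groups overlapped, and the log2 fold change of 0.02 had a 95% interval from -0.05 to 0.09 (adjusted p = 0.562). With equal totals Klf10 was called upward (0.09, adjusted p = 0.0216).

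Among all 14 Krüppel-like factor genes tested, 6 rose and 5 fell, with a median of 0.12, against 38.3% and 39% of all tested genes. With equal totals 8 rose and 4 fell, beside 6006 and 4735 of 13663 genes. Klf5, a factor of growing epithelium and smooth muscle, was the gene of this family with the largest change. It was at 87, 96 and 90 in WT against 522, 527 and 543 in CSE-KO, a 5.83-fold rise (log2 fold change 2.54, SE 0.06, adjusted p = 1.2e-10). Per kilobase of exon, Klf5 reached 102 in CSE-KO, still below Klf6 at 543, Klf4 at 430 and Klf2 at 391.

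Of 19 genes listed as upstream of Klf2 and Klf4, 10 fell and 5 rose, with a median of -0.09, against 39% and 38.3% of all tested genes. The list was not split by whether a gene raises or restrains Klf2 and Klf4, so these counts give no direction for the pathway. Kdr, Pecam1 and Cdh5, which fell, are also among the endothelial markers above. Against a minimum fold of 1.2, 5 of the 19 fell and 1 rose, beside 3529 and 3182 of all 13750 genes. In the limma test without a minimum fold, Mapk7, which encodes ERK5, was not called, at 576, 597 and 607 against 600, 588 and 591 (adjusted p = 0.989, 95% interval of the log2 fold change -0.075 to 0.074). The adjusted p-values below are from that test too. The MEF2 genes, whose products act on the Klf2 promoter, moved apart. Mef2c was at 830, 838 and 853 in WT against 260, 157 and 126 in CSE-KO, with CSE-KO 1 the highest of its group (log2 fold change -2.28, adjusted p = 0.0019). Mef2a rose from 1352 ± 37.0 to 1672 ± 48.6 (adjusted p = 2.1e-06), and Mef2d from 1094 ± 18.2 to 1246 ± 16.5 (adjusted p = 3.6e-05). Mef2b was at 2, 0 and 0 in WT against 100, 99 and 112 in CSE-KO. It passed the filter on low values only through CSE-KO, so it could be called only as a rise. It is counted among the 5 rises. The membrane proteins of the pathway with the largest falls were the VEGF receptor Kdr (2143 ± 26.2 to 980 ± 76.6, adjusted p = 2.8e-07) and the semaphorin receptor Plxnd1 (3780, 3706 and 3761 against 1584, 1027 and 967, adjusted p = 0.0019).

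Nos3, the endothelial nitric oxide synthase (ENSMUSG00000028978, chromosome 5, 24364810 to 24384474), was at 555, 581 and 586 in WT against 225, 202 and 221 in CSE-KO. The groups lay far apart, and Nos3 fell by 1.41 on the log2 scale (SE 0.052, adjusted p = 2.0e-09), to 0.376 of its WT mean. Of all tested genes, 7.78% had a lower log2 fold change. Its ratio to endothelial markers depended on the marker. Relative to Cdh5, which fell less than 9 of the other 10 markers, it was 0.203 ± 0.007 in WT and 0.081 ± 0.005 in CSE-KO. Over the 11 markers the CSE-KO to WT quotient of that ratio ranged from 0.371 with Emcn to 1.12 with Cldn5, below 1 with 9 of them, and was 0.591 with their sum, where the groups did not overlap. With the sum of the lymphatic markers it was 0.886, and the groups overlapped. Atg9b, an autophagy gene on the opposite strand, shares 294 exonic bases with Nos3 and was at 52, 52 and 40 against 147, 149 and 162, while Gm15587, also opposite, shares 1040 and was at 10, 15 and 17 against 4, 2 and 3. The library kit keeps strand, but whether the counting used it is not stated.

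Nostrin, whose product carries the synthase away from the membrane (ENSMUSG00000034738, chromosome 2, 69135800 to 69189330), had by far the lowest values of the 10 genes. It was at 21, 23 and 25 in WT against 11, 13 and 16 in CSE-KO, and the groups did not overlap. It fell by 0.78 on the log2 scale (SE 0.24, adjusted p = 0.011), with a 95% interval from -1.30 to -0.26. With WT counted as 1 sample it was again -0.78, and the adjusted p was 0.0986 with 1 sample against 3. The quotient of its ratio to the summed endothelial markers was 0.915, and the groups overlapped. Over the 11 single markers the quotient ran from 0.572 (Emcn) to 1.78 (Cldn5), below 1 with 5 and above 1 with 6.

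Of 27 tested genes for nitric oxide synthesis and response, 11 rose and 13 fell, with a median of -0.11, against 38.3% and 39% of all tested genes. Genes that serve the synthase moved in both directions. Gch1, which limits synthesis of the cofactor tetrahydrobiopterin, rose 2.05-fold from 309 ± 10.7 to 634 ± 18.6 (adjusted p = 3.9e-09), and the arginine carrier Slc7a1 rose 2.02-fold from 1148 ± 17.2 to 2313 ± 62 (adjusted p = 1.6e-10). Arg2, an arginase that competes for arginine, was at 40, 61 and 60 against 166, 210 and 185 (adjusted p = 4.8e-06). The chaperone gene Hsp90aa1 rose from 741 ± 16.6 to 1110 ± 27.0 (adjusted p = 1.9e-08). Cav1, the caveolar protein that holds the synthase inactive, rose by only 0.06 on the log2 scale (adjusted p = 0.0335), and Ass1, which regenerates arginine, was at 119 ± 9.07 and 122 ± 10.1 (adjusted p = 0.724). Ddah2, linked to breakdown of methylarginine inhibitors, fell from 249 ± 11.5 to 103 ± 12.5 (adjusted p = 2.3e-07).

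In the endothelin system the ligand rose slightly and the receptor and converting enzyme fell. Edn1, which encodes the precursor of endothelin (ENSMUSG00000021367, chromosome 13, 42301476 to 42307990), was at 928, 914 and 877 in WT against 1044, 1026 and 1014 in CSE-KO. Every CSE-KO library was above every WT library, and its log2 fold change came to 0.18 (SE 0.029, adjusted p = 0.00017), a 13.4% rise of the mean. The ratio of Edn1 to each of the 11 endothelial markers was higher in CSE-KO, with quotients of 1.12 (Emcn) to 3.36 (Cldn5), and 1.78 with their sum. The related ligands were nearly undetected, with Edn2 at 0, 0 and 0 against 3, 1 and 2 and Edn3 at 9 or less in every library. The receptor gene Ednra and Ece2 were not analysed here.

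Ednrb, the endothelial endothelin receptor (ENSMUSG00000022122, chromosome 14, 103814625 to 103844402), showed the largest change of the 10 genes. It was at 859, 906 and 839 in WT 1 to 3 against 155, 99 and 86 in CSE-KO 1 to 3. No CSE-KO value came near the WT range, though CSE-KO 1 lay above the other two by 0.745 on the log2 scale. The WT mean was 7.66 times the CSE-KO mean, with a log2 fold change of -2.98 (SE 0.24, adjusted p = 0.00023), and 1.35% of all tested genes had a lower one. The log2 fold change was -3.23 without CSE-KO 1 and stayed at -2.80 or below without any other library. With WT counted as 1 sample and CSE-KO 2 and 3 as 1, the log2 fold change was -2.85, and the adjusted p was 0.066 with 1 sample against 2. The ratio of Ednrb to each of the 11 endothelial markers was lower in CSE-KO, with quotients of 0.129 (Emcn) to 0.368 (Cldn5), and 0.204 with their sum. With the 5 lymphatic markers the quotients ran from 0.117 (Pdpn) to 0.77 (Reln), and 0.299 with their sum.

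Ece1, the converting enzyme (ENSMUSG00000057530, chromosome 4, 137862237 to 137965229), was at 2919, 2851 and 2844 in WT against 1956, 1742 and 1763 in CSE-KO. The groups were clearly separate, with CSE-KO 1 the nearest to WT, and Ece1 fell by 0.66 on the log2 scale (SE 0.042, adjusted p = 1.7e-06). Relative to the summed endothelial markers the quotient was 0.996, and the groups overlapped. Its RefSeq entries have 4 transcription starts, and the values do not tell them apart. Within a library the ratio of Edn1 to Nos3 was 1.58 ± 0.09 in WT and 4.77 ± 0.27 in CSE-KO, and that of Edn1 to Ednrb was 1.01 to 1.08 against 6.74 to 11.8. The ratio of Edn1 to Ece1 was 0.316 ± 0.006 against 0.566 ± 0.029. In none of these did the groups overlap, and each gave p = 0.1 in the exact permutation test, the smallest it allows, as did 8 of the 9 ratios tested.

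**Figure D2:**
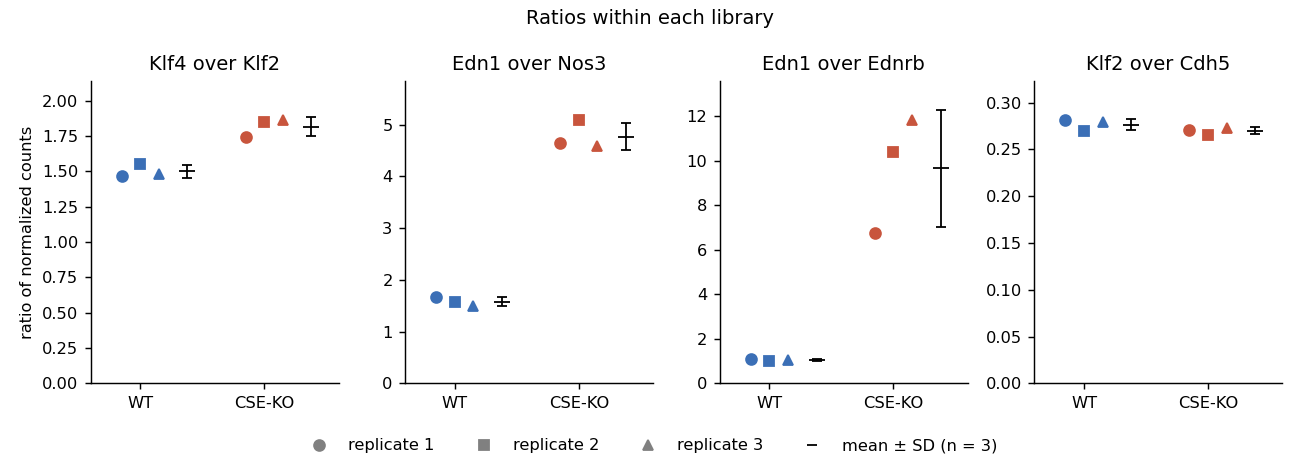
Ratios of normalized counts within each library, by group, with points for libraries and bars for the mean ± SD (n = 3). Klf4 over Klf2, Edn1 over Nos3 and Edn1 over Ednrb were higher in every CSE-KO library. Klf2 over Cdh5 lay between 0.266 and 0.281 in all 6. That holds for Cdh5 as the marker. Of the 11 endothelial markers, 9 gave a higher Klf2 ratio in CSE-KO (quotient up to 2.75 with Cldn5) and 2, Cdh5 among them, a lower one.

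Txnip, the thioredoxin-interacting protein gene (ENSMUSG00000038393, chromosome 3, 96557957 to 96561883), was at 1478, 1459 and 1431 in WT against 1485, 1508 and 1493 in CSE-KO. The CSE-KO values lay just above those of WT, by a log2 fold change of 0.04 with a 95% interval from -0.01 to 0.09 (adjusted p = 0.141). It was called upward after upper-quartile scaling (0.09, adjusted p = 0.0054) and with equal totals (0.11, adjusted p = 0.00083). The quotient of its ratio to the summed endothelial markers was 1.62. Gm15441, a gene on the opposite strand that shares 606 exonic bases with Txnip, was at 58, 74 and 62 against 53, 42 and 38. Arrdc4, an alpha arrestin related to Txnip, rose from 470 ± 6.56 to 1116 ± 55.8 (log2 fold change 1.25, adjusted p = 5.6e-10), and Arrdc1 fell from 295 ± 11.7 to 140 ± 18.3 (adjusted p = 8.7e-07). Txn1, the thioredoxin that TXNIP binds, was at 356 ± 1.73 and 368 ± 8.74 (adjusted p = 0.299), and the reductase Txnrd3 rose 2.09-fold (adjusted p = 2.3e-06). Of the 14 thioredoxin and arrestin genes tested 7 rose and 5 fell, with a median of 0.10, against 38.3% and 39% of all tested genes. With equal totals 9 rose and 4 fell, beside 6006 and 4735 of 13663 genes.

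Of 13 tested genes known to be raised by laminar flow or by KLF2, Nos3 among them, 6 rose and 6 fell, with a median of 0.04. Of all tested genes 38.3% rose and 39% fell. The list genes that rose included Thbd, which encodes thrombomodulin, at 786, 758 and 776 against 1861, 1878 and 1919 (log2 fold change 1.29, adjusted p = 4.7e-11). The prostaglandin carrier Slco2a1 rose 4.64-fold from 357 ± 6.66 to 1655 ± 28.9 (adjusted p = 2.3e-12) and the cytochrome gene Cyp1b1 4.62-fold from 198 ± 15.3 to 913 ± 7.81 (adjusted p = 1.5e-10). Beside Nos3, the angiopoietin receptor Tek fell from 862 ± 23.0 to 292 ± 29.0 (adjusted p = 2.2e-08) and the water channel Aqp1 went from 1646, 1609 and 1635 to 787, 493 and 435 (adjusted p = 0.0044). Of 14 genes known to be lowered by laminar flow or by KLF2, 7 rose and 3 fell, with a median of 0.12, against 38.3% and 39% of all tested genes. With equal totals or upper-quartile scaling 9 rose and 3 fell. Of all 13663 genes, 6006 rose and 4735 fell with equal totals, and 5748 and 4924 with upper-quartile scaling. Edn1, Ece1 and Txnip are in that list. The chemokine Cxcl12 had the largest rise of that list, 2.62-fold from 835 ± 20.1 to 2186 ± 101 (adjusted p = 1.4e-10).

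**Figure D3:**
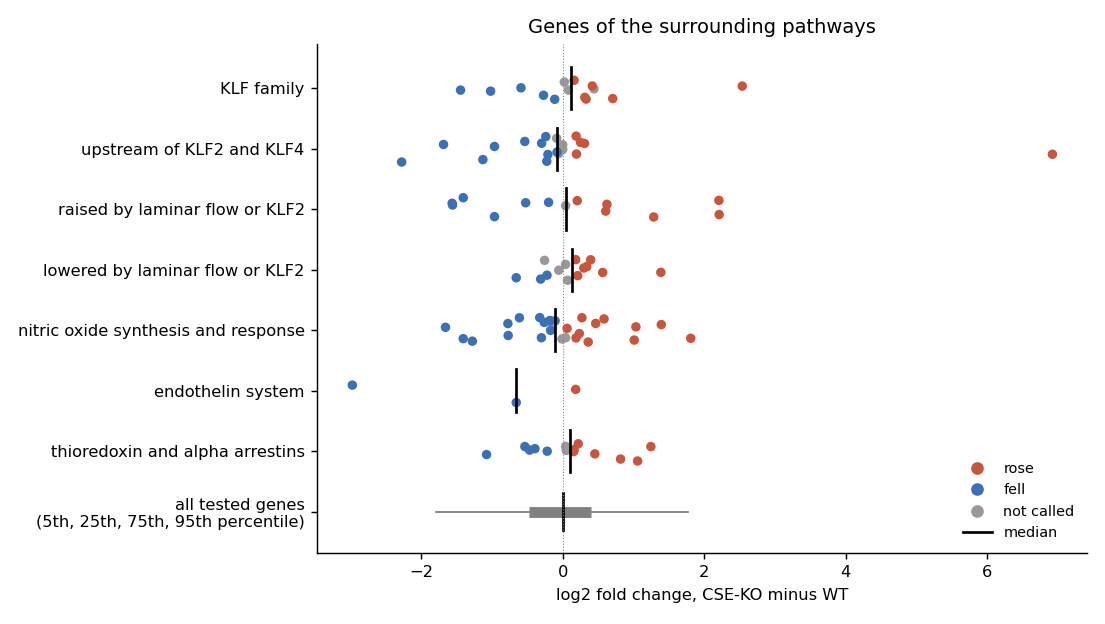
Log2 fold change (CSE-KO minus WT) of each tested gene in 7 lists around the 10 genes, with the median as a vertical line. Colours give the limma call, and the lowest line spans the 5th to the 95th percentile of all 13750 tested genes (-1.80 to 1.77), its thick part the 25th to the 75th (-0.47 to 0.40). Every list holds genes on both sides of 0.

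Levels were compared approximately between genes per kilobase of exon. The length covers all annotated exons of a gene, whichever transcripts are made, so the order depends on the annotation. The values are not corrected for the limit on densely read genes described below. In WT the order of the mean levels was Ece1 (542), Txnip (466), Klf6 (433), Edn1 and Klf2 (424 each), Klf4 (385), Ednrb (203), Klf10 (183), Nos3 (139) and Nostrin (12.2). The ranges of Klf6, Edn1 and Klf2 overlapped, and no other neighbours did. In CSE-KO the order was Klf6 (543), Edn1 (481), Txnip (479), Klf4 (430), Klf2 (391), Ece1 (343), Klf10 (186), Nos3 (52.3), Ednrb (26.6) and Nostrin (7.06), where only Edn1 and Txnip overlapped. Ece1 thus went from the first place to the sixth, and Ednrb from the seventh to the ninth.

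Several of these genes were read so densely that their changes may be understated. Klf6 and Ece1 reached 0.551 reads per exonic base in their highest library, Edn1 0.488, Txnip 0.483, Klf4 0.445 and Klf2 0.434, whereas the median gene had 0.0314 and the most densely read gene had 0.843. If reads with the same start position had been removed, which no source used here states, no gene could pass 1 read per base. Corrected for that limit, the log2 fold change went from -0.66 to -0.89 for Ece1, from 0.33 to 0.47 for Klf6, from 0.18 to 0.25 for Edn1, from 0.16 to 0.21 for Klf4 and from -0.11 to -0.15 for Klf2. The calls were again 3 upward and 5 downward, with 77.6% of all genes called.

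**Figure D4:**
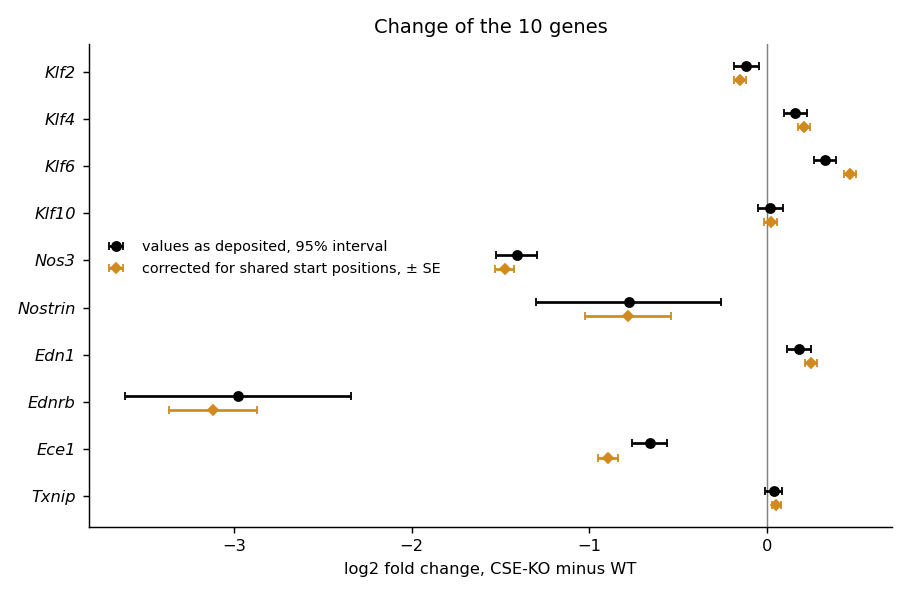
Log2 fold change (CSE-KO minus WT) of the 10 genes. Black circles are the values as deposited with their 95% interval, and orange diamonds the values corrected for shared start positions ± SE. The correction moved Ece1 and Klf6 farther from 0 (to -0.89 and 0.47), and Klf10 and Txnip stayed near 0.

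Among the 8 genes called, CSE-KO 1 was the CSE-KO library nearest to WT in 5 (Ece1, Ednrb, Klf4, Klf6 and Nos3), or 62.5%, against 61.2% of all genes called. By root mean square distance of log2 values from the WT mean over the 6 libraries, among 9475 genes with a mean of at least 100, the profile of Klf2 was nearest to Actr2 (distance 0.01), F11r and Capzb. Klf4 was nearest to Ttc33 (0.008), Rad17 and Uqcrfs1. Nos3 was nearest to Gpm6a (0.043), Etl4 and Camkk2, with Gpm6a at 458, 491 and 492 against 202, 168 and 186. With 6 libraries in 2 groups, this distance is set mainly by the size of the group difference.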

How the data were processed

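Gene expression was measured in 6 libraries, for which total RNA (300 ng) went into a stranded mRNA kit and sequencing was single-end at 75 bp, per the labels' protocols. The authors deposited a whole-number score per gene and library. No header or label states its unit, and it was read as a normalized count, since median-ratio size factors of the table lay between 1.0026 and 1.0083 and some whole numbers were never used (43 in WT 1, 28 in CSE-KO 3). Listed in the submitters' processing notes are build mm10, DESeq2 1.26.0, featureCounts 1.6.5, Picard 2.21.7, STAR 2.7.3a and Trimmomatic 0.39, with their roles not given. Totals are therefore of normalized counts and only approximate depth.

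Values were taken as log2(value + 0.5), and genes with at least 10 in at least 3 libraries were fitted with limma 3.58.1 in R 4.3.3 (the test set for normalized values; group only, mean trend, robust variances, two-sided) with Benjamini-Hochberg adjustment over all 13750 genes tested. Fold changes are on that scale, which understates the change of low genes. Folds are left out for genes with a group mean under 3. Exonic lengths came from GENCODE mouse release M21 (18940 of 18956 IDs found), promoters from RefSeq on GRCm38.p6. The 10 genes, the lists and the motifs were chosen with earlier results of these data known. Named are the 10 genes, list genes called with a mean of at least 100 in either group and a log2 change of at least 1, a set of direct partners, and the 3 nearest profiles of Klf2, Klf4, Nos3 and Edn1, of which those of Edn1 are not reported here. Atg9b, Gm15587, Gm15441, Mef2d, Pecam1, Emcn, Cldn5, Pdpn, Reln, Adgre1, Ptprc, Itgam, Cd14, Epcam, Mpeg1, Csf1r, C1qa, C1qb, Tyrobp, Wt1, Msln, Upk3b and Cspg4 were named after their values were seen. Alternatives covered scaling, filter, pseudocount, leaving out libraries, a replicate block, counting near-identical libraries as 1, shared start positions and a test against a fold of 1.2. Ratios to single and summed endothelial markers were added after the results were seen.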

Additional observations from a re-analysis of the deposited data

How the results depend on the processing

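Nos3, Klf6 and Ece1 kept their direction and call in all 18 alternatives, with log2 fold changes of -1.48 to -1.34, 0.30 to 0.47 and -0.89 to -0.59. Against a minimum fold of 1.2, limma called 6711 genes in place of 10639, and 1 upward and 3 downward members. In it Klf2 (-0.11), Klf4 (0.16), Edn1 (0.18) and Nostrin (-0.78) lost their calls. With equal totals 5 members rose, Klf2 (-0.0411) lost its call and Klf10 (0.0948) and Txnip (0.11) gained one. After upper-quartile scaling Klf2 (-0.0653) lost its call and Txnip (0.088) gained one. With WT counted as 1 sample 3 members fell, with Klf2 (-0.11) and Nostrin (-0.78) uncalled. With CSE-KO 2 and 3 also counted as 1, added after the data were seen, 2 members fell, and Klf2 (-0.11), Nostrin (-0.84) and Ednrb (-2.85) were uncalled. The cause was not tested.

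Leaving out a library gave -8.5e-05 to 0.0401 for Klf10, which was not called in any of these, and -3.23 to -2.80 for Ednrb, and no member lost its call. Nostrin gave no value at a minimum of 50. The replicate numbers did not pair the libraries (correlations of deviations -0.001, 0.02 and 0.011 for equal numbers), and with the replicate block 10440 genes were called and Klf2 was at -0.11, with no member's call changed. The table keeps genes that reach at least 3 in some library, and depth limits Nostrin most.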
